A study of Mus musculus with 7 samples.

Results

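The tumour necrosis factor (TNF) ligand and receptor superfamily genes were examined for peaks of LEF1 and TCF1 in naive mouse CD8 T cells. The members are the protein-coding genes of the GRCm38.p6 RefSeq gene table whose symbols start with Tnfrsf (receptors) or Tnfsf (ligands). This gave 32 members, 20 receptors and 12 ligands, of 21883 protein-coding genes on chromosomes 1 to 19, X and Y. Lef1 and Tcf7 encode LEF1 and TCF1, a pair of HMG-box transcription factors that act in developing and naive T cells. They were mapped by CUT&RUN, in which an antibody brings a nuclease to a bound protein and the DNA cut out around it is sequenced. There were 3 libraries with an antibody to LEF1 and 3 with an antibody to TCF1. All came from spleen CD8 T cells of genotype WT that carried the TCR-P14 transgene, a T cell receptor of fixed specificity, and were sorted as naive cells through a gate that included CD8+, Ly5.1+ and CD44-. The cells of both groups thus carry the same transgenic receptor. Separate animals are not stated for the replicates, and the p-values therefore cover a spread among libraries that could be technical. The 1 input control was sorted through another gate (CD8+, Ly5.1- and CD44+), and was not analysed here.

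Ligands of this superfamily are mostly membrane proteins that act as trimers, and their receptors signal through adaptors called TRAFs or, in receptors with a death domain, through proteins that lead to cell death or NF-kB activation. On T cells, receptors such as OX40 (Tnfrsf4), 4-1BB (Tnfrsf9) and GITR (Tnfrsf18) are known as costimulatory receptors that are raised after activation. Other members serve B cell survival (the receptors of BAFF and APRIL) or bone turnover (RANK, RANKL and osteoprotegerin).

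Lists were 27666, 37646 and 23704 peaks long in LEF1 replicates 1, 2 and 3, and 25623, 22901 and 11423 peaks long in TCF1 replicates 1, 2 and 3. TCF1 replicate 3 stands apart by its short list, and results that rest on it are also given with lists of equal size or without it. Read totals are not given in the peak lists, so the depth behind a missing peak is unknown. As a check of the labelled cell type, peaks lay in every library at all 5 T cell genes listed (such as Cd3e and Lck) and at Cd8a and Cd8b1. Peaks also lay in every library at 2 of 5 B cell genes, 2 of 5 myeloid genes, 0 of 3 NK cell genes and 1 of 2 CD4 T cell genes, beside 33.9% of all protein-coding genes. Of these lists, Ms4a1, Lyz2, Csf1r and Ncr1 had no peak in any library. A peak shows where DNA was cut, not whether the gene is expressed. No list of a non-specific antibody was analysed here.

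Peaks lay at most members of the superfamily, and more of them per gene at receptors than at ligands. A gene was counted for every distinct peak interval that touched its body or the 10 kb on each side. In the LEF1 libraries, 21, 24 and 18 of the 32 members had a peak (replicates 1, 2 and 3), beside 52%, 58.4% and 48.8% of all protein-coding genes. In the TCF1 libraries, 20, 18 and 12 members had a peak, beside 53.2%, 50.9% and 34.2% of all genes. As shares of the members these were 65.6%, 75% and 56.2% for LEF1 and 62.5%, 56.2% and 37.5% for TCF1, so that the members lay above all genes in each of the 6 libraries, by little in TCF1 replicate 3. A peak in at least 1 list was found at 24 members, 75%, against 59.4% of all genes, and a peak in all 6 lists at 12 members, 37.5%, against 33.9%. The other 8 members had no peak in any list, 25% against 40.6% of all genes.

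**Figure D1:**
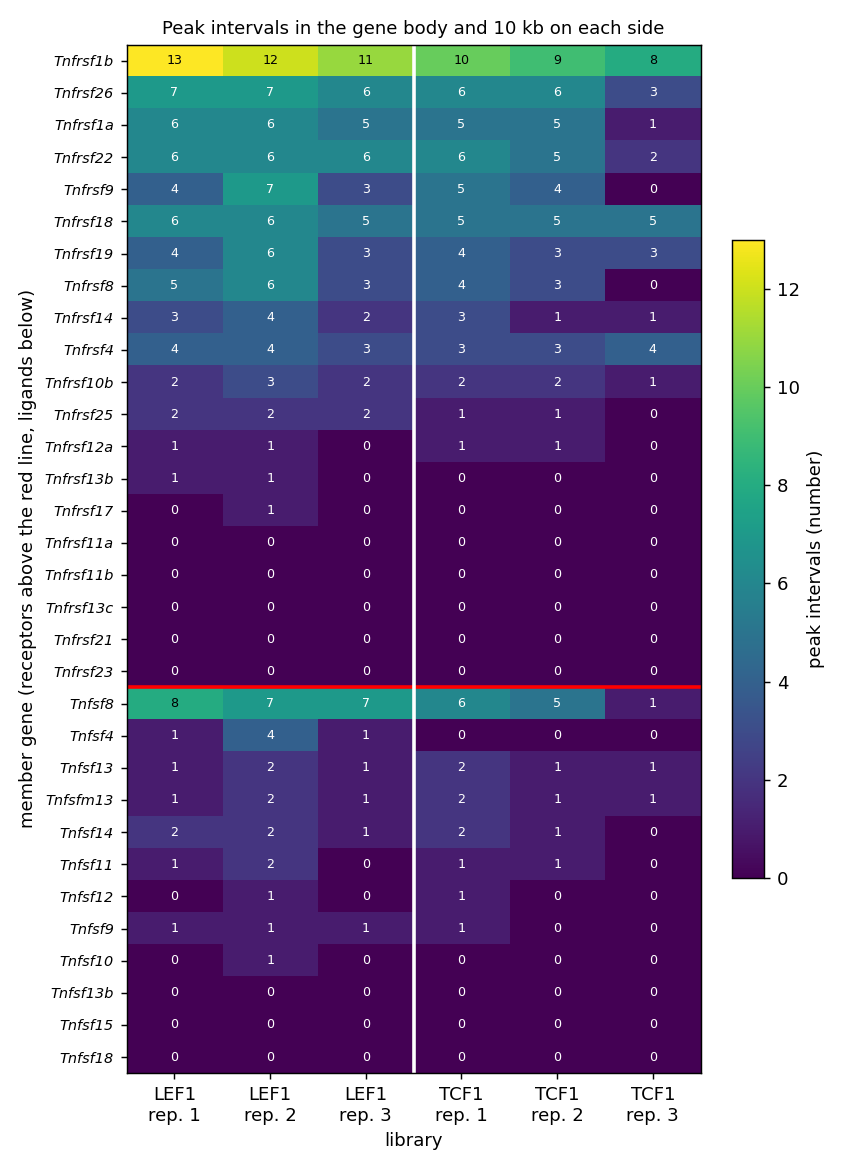
Number of peak intervals (colour and digits) within each member's body and its 10 kb flanks, for each member (rows, receptors above the red line and ligands below) in each library (columns, LEF1 left of the white line and TCF1 right of it). Tnfrsf1b has 8 to 13 peaks in every library, Tnfsf8 leads the ligands with 1 to 8, and 8 members have 0 throughout.

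Receptors carried more peaks per gene than ligands, and more than the mean of all genes, in each of the 6 libraries. The mean number of peaks per gene in LEF1 replicates 1, 2 and 3 was 3.2, 3.6 and 2.55 for receptors and 1.25, 1.83 and 1 for ligands. In TCF1 replicates 1, 2 and 3 it was 2.75, 2.4 and 1.4 for receptors and 1.25, 0.75 and 0.25 for ligands. Over all protein-coding genes it was 1.35, 1.82 and 1.16 in the LEF1 libraries and 1.29, 1.16 and 0.585 in the TCF1 libraries. By this count per gene, which does not allow for window size, ligands lay below the mean of all genes in 5 of 6 libraries. They were level with it in LEF1 replicate 2. The medians over genes were 2.5, 3.5 and 2 for receptors and 1, 1.5 and 0.5 for ligands in LEF1 replicates 1 to 3. They were 2.5, 1.5 and 0 for receptors and 1, 0 and 0 for ligands in TCF1 replicates 1 to 3, against 1, 1 and 0 over all genes in each factor's replicates.

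Median gene length was 18.6 kb for receptors and 17 kb for ligands (17.2 kb over all genes). The merged windows spanned 878 kb for the 20 receptors, 388 kb for the 12 ligands and 1287594 kb for all 21883 protein-coding genes. The window per gene was thus larger at receptors than at ligands, and largest over all genes. Per 100 kb of window, receptors had 6.38, 7.18 and 5.01 peaks and ligands 3.61, 4.9 and 2.84 in LEF1 replicates 1 to 3. In TCF1 replicates 1 to 3 receptors had 5.47, 4.67 and 2.62 and ligands 3.09, 2.06 and 0.516. The same density over the windows of all genes was 1.69, 2.3 and 1.45 in LEF1 replicates 1 to 3 and 1.59, 1.42 and 0.71 in TCF1 replicates 1 to 3. By density, receptors lay above all genes in every library. Ligands did so in every library but TCF1 replicate 3, unlike in the count per gene. The share of genes with a peak separated the classes less. It was 60 to 75% of receptors and 50 to 75% of ligands in the LEF1 libraries. In the TCF1 libraries it was 45 to 65% of receptors and 25 to 58.3% of ligands. The 25%, in TCF1 replicate 3, counts 3 ligands but 2 distinct peaks, since Tnfsf13 and Tnfsfm13 share a peak.

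The contrast depends on the naming rule. With the superfamily genes of other symbols added, the mean difference over the 6 libraries fell to 0.195 peaks per gene (0.00752 to 0.35 in single libraries), against 1.59 for the Tnfrsf and Tnfsf symbols alone. Genes are not replicates, so no test was made across them.

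**Figure D2:**
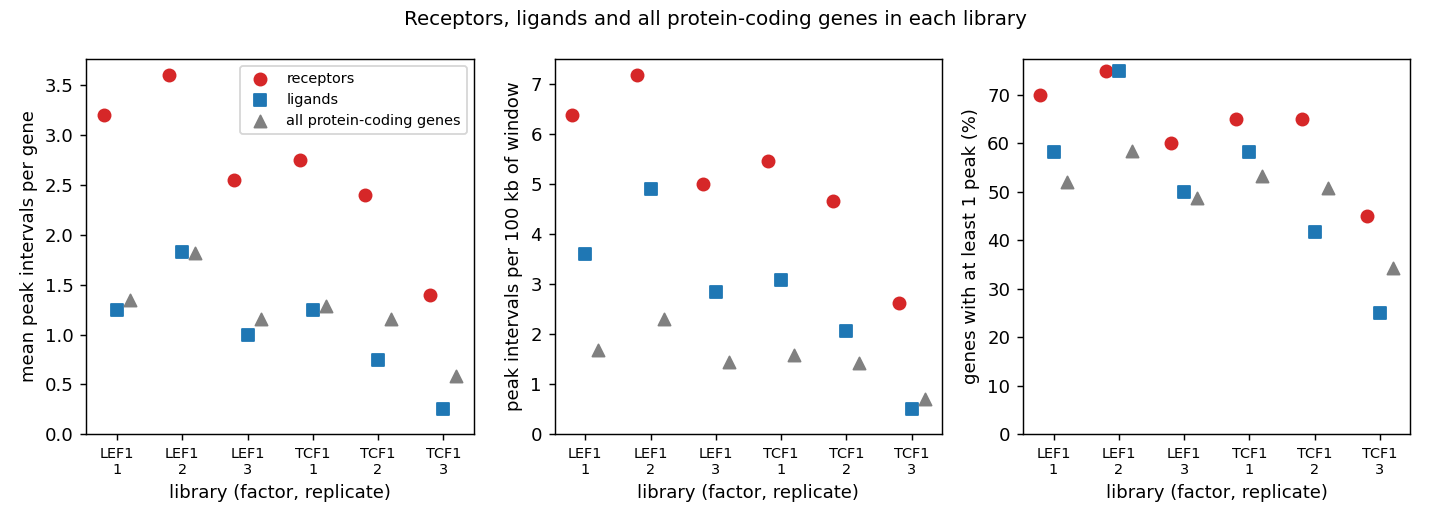
Mean peak intervals per gene, peak intervals per 100 kb of window and share of genes with at least 1 peak (vertical axes) in each library (horizontal axes), for receptors (circles), ligands (squares) and all protein-coding genes (triangles). Receptors lie above ligands in all 6 libraries in the first and second panels, and level with them in LEF1 replicate 2 in the panel of shares, at 75%.

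Merged over the 6 libraries, the peaks at members formed 87 regions, 67 at receptors and 20 at ligands. The receptor regions were found in all 6 libraries in 21 cases (31.3%) and the ligand regions in 2 (10%), against 28.9% of the regions near any protein-coding gene. Regions seen in a single library made up 16.4% at receptors and 35% at ligands, against 22.7% near all genes. By the authors' fold enrichment, ranked within each list so that 0 is the strongest, the median receptor peak stood at the 44.5 to 52.7 percentile in the LEF1 libraries and 34.6 to 51.8 in the TCF1 libraries. The median ligand peak stood at 53.4 to 68.7 and 49.8 to 74. Of the 87 regions, 8 had a mean rank in the strongest 10%, and all 8 were among the 67 at receptors. With only 20 regions at ligands their absence there says little, and the share over all genes was not computed. The summit lay inside the body of a member in 45 of the 87 regions (51.7%), inside another gene only in 8 and in no gene in 34. The gene table used here gives no exons, so a summit in a gene body may be exonic or intronic.

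The members are not spread evenly over the genome. Chromosome 4 holds 9 of them, 7 receptors and 2 ligands, and 46 of the 87 regions. Neighbouring members share windows and therefore peaks. Tnfrsf26 and Tnfrsf22 had 9 distinct regions, 6 of which counted for both, and Tnfrsf4 and Tnfrsf18 had 7, 3 of which counted for both. Among ligands, Tnfsf12, Tnfsf13 and Tnfsfm13 had 3 distinct regions, 2 of which counted for all 3 genes. Of the 87 regions, 15 (17.2%) were nearer to a gene outside the superfamily than to any member.

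The receptors of TNF itself were among the most densely marked members. Tnfrsf1b, the gene of TNF receptor 2, had 13, 12 and 11 peaks in LEF1 replicates 1, 2 and 3 and 10, 9 and 8 in TCF1 replicates 1, 2 and 3, so that the groups did not overlap. LEF1 held 12 regions there and TCF1 held 9, where holding a region means that 2 or 3 of a factor's 3 libraries list a peak in it. Of all protein-coding genes, 0.64% had more LEF1 regions and 0.653% more TCF1 regions. The strongest lay inside the gene, 10.5 kb downstream of its start (chr4:145235792-145236712). Its fold enrichment was 86.5, 117 and 81.2 in the LEF1 libraries and 91.2, 80.3 and 45.8 in the TCF1 libraries, which put it among the strongest 0.497 to 1.35% of each list. A further region 7.79 kb upstream of the start (chr4:145254400-145255063) was also in all 6 libraries, at the 2.89 to 6.92 percentile. Around the start itself, peaks were listed in LEF1 replicates 1 and 2 and in no TCF1 library.

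Tnfrsf1a, the gene of TNF receptor 1, which carries a death domain, had 6, 6 and 5 peaks in the LEF1 libraries and 5, 5 and 1 in the TCF1 libraries. The peak left in the short list of TCF1 replicate 3 was the strongest region of the gene, inside its body 5.77 kb downstream of the start (chr6:125355044-125355906). The fold enrichment there was 61.9, 85.2 and 52.1 in the LEF1 libraries and 69, 58.8 and 29.6 in the TCF1 libraries. With lists of equal size, that gene had 1 peak in each of the 6 libraries and Tnfrsf1b had 7, 7 and 7 in LEF1 and 7, 7 and 8 in TCF1.

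The death receptor gene Tnfrsf10b, the mouse receptor of TRAIL, had 2, 3 and 2 LEF1 peaks and 2, 2 and 1 TCF1 peaks. Its strongest region lay inside the gene (chr14:69774192-69775423), at fold enrichments of 45, 51.1 and 48.8 in LEF1 and 42.4, 44.3 and 18.6 in TCF1. Tnfrsf25 encodes DR3, a death domain receptor of T cells that binds the ligand TL1A. It had 2 peaks in each LEF1 library and 1, 1 and 0 in the TCF1 libraries, without overlap. Both regions in its window lay inside the neighbouring gene Espn, so that no peak was left when each counted for its nearest gene alone. Tnfrsf21 (DR6) had no peak, and the nearest region of any library lay 129 kb away.

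On chromosome 7 stand 3 receptor genes in a row, of which Tnfrsf22 and Tnfrsf23 encode decoy receptors of TRAIL in the mouse. Tnfrsf26 had 7, 7 and 6 LEF1 peaks and 6, 6 and 3 TCF1 peaks, and Tnfrsf22 had 6, 6 and 6 and 6, 5 and 2. Tnfrsf23 had none, with the nearest region 20.4 kb from it. The region at members with the best mean rank of all (chr7:143600010-143600581, mean percentile 0.432) counted for Tnfrsf26, yet lay 0.16 kb from Cars, a tRNA synthetase gene. Its fold enrichment was 95.6, 135 and 91.7 in LEF1 and 105, 96.4 and 52.9 in TCF1. A region inside Tnfrsf26 (chr7:143624561-143625742) reached the 1.18 to 6.31 percentile and also fell within the window of Tnfrsf22.

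Costimulatory receptor genes carried peaks in both factors, with differing strength. Tnfrsf18 (GITR) had 6, 6 and 5 LEF1 peaks and 5, 5 and 5 TCF1 peaks, and Tnfrsf4 (OX40) had 4, 4 and 3 and 3, 3 and 4. TCF1 replicate 3, with its short list, had as many peaks at both genes as the other TCF1 libraries or more, though some lay in 1 region: by regions it had 4 at Tnfrsf18, against 5 in each of the other TCF1 libraries, and 3 at Tnfrsf4, as they had. A region between them (chr4:156021290-156022727), 3.9 kb upstream of the start of Tnfrsf18, was in all 6 libraries at the 10.2 to 18.6 percentile. All 4 regions in the window of Tnfrsf4 were nearer to Tnfrsf18 or to Sdf4, and 1 of them lay inside Sdf4 (chr4:156003951-156004688). Fold enrichment in that region was 31.8, 61.9 and 27.5 in LEF1 and 29.4, 26.6 and 12.4 in TCF1.

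Tnfrsf9 (4-1BB) had 4, 7 and 3 LEF1 peaks and 5, 4 and 0 TCF1 peaks, and Tnfrsf8 (CD30) had 5, 6 and 3 and 4, 3 and 0. The highest fold enrichment was 16.2 at Tnfrsf9 and 22.3 at Tnfrsf8, both in LEF1 replicate 2, where the median over peaks near all genes was 11.4, and with lists of equal size Tnfrsf9 had no peak in any library. Tnfrsf8 then had 1, 3 and 2 in LEF1 and 1, 0 and 0 in TCF1.

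Tnfrsf14 encodes HVEM, the receptor of LIGHT that also binds the inhibitory receptor BTLA. It had 3, 4 and 2 LEF1 peaks and 3, 1 and 1 TCF1 peaks. It had few regions but 1 of the strongest, 8.75 kb upstream of its start (chr4:154935877-154937322). The fold enrichment there was 70.8, 93.5 and 63.6 in LEF1 and 70.3, 60.3 and 30.6 in TCF1, the 1.2 to 4.7 percentile of the lists.

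Receptor genes of B cells and of bone had few peaks or none. Tnfrsf13b (TACI) had 1 peak in each of LEF1 replicates 1 and 2 and none in the other libraries. Tnfrsf17 (BCMA) had a peak in LEF1 replicate 2 alone, inside the neighbouring gene Snx29, and Tnfrsf13c (the BAFF receptor) had none. Tnfrsf11a (RANK) and Tnfrsf11b (osteoprotegerin, a soluble decoy of RANKL) had none, with the nearest regions 41.7 and 465 kb away. Tnfrsf12a (the TWEAK receptor Fn14) had 1, 1 and 0 LEF1 peaks and 1, 1 and 0 TCF1 peaks, inside Thoc6. Tnfrsf19 (TROY), a receptor best known from skin and brain, had 4, 6 and 3 LEF1 peaks and 4, 3 and 3 TCF1 peaks. With lists of equal size it had 3 in each of the 6 libraries. Of its regions in all 6 libraries, 1 lay 0.395 kb downstream of a start (chr14:61045940-61046789). Another lay 9.8 kb upstream of that start (chr14:61056463-61057593), and another 25.4 kb downstream of the gene's other listed start (chr14:61012331-61012834).

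Among ligands, Tnfsf8, the gene of CD30 ligand, had the most peaks in 5 of 6 libraries. It had 8, 7 and 7 peaks in LEF1 replicates 1, 2 and 3 and 6, 5 and 1 in TCF1 replicates 1, 2 and 3. The groups did not overlap, and with lists of equal size they were 3, 3 and 2 in LEF1 and 1, 1 and 1 in TCF1. With equal lists among the 5 libraries other than TCF1 replicate 3 they were 6, 6 and 7 in LEF1 and 6 and 5 in TCF1, and overlapped. The region found in all 6 libraries lay inside the gene, 18.9 kb from its start (chr4:63842186-63842626), at fold enrichments of 16.2, 23.5 and 17.7 in LEF1 and 10.5, 10.6 and 6.02 in TCF1. A region 1.04 kb upstream of the start (chr4:63862152-63862515) was in all 3 LEF1 libraries and no TCF1 library. Of the ligand windows, that of Tnfsf8 held 7 of the 20 regions.

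Tnfsf4 (OX40 ligand) had 1, 4 and 1 LEF1 peaks and no TCF1 peak. A single region inside it (chr1:161400293-161400541) was shared by the 3 LEF1 libraries, at fold enrichments of 8.77 to 11.8. Tnfsf13, the gene of APRIL, and the read-through gene Tnfsfm13 had 1, 2 and 1 LEF1 peaks and 2, 1 and 1 TCF1 peaks each. Their region in all 6 libraries (chr11:69672284-69672735) only touched the edge of the window, 0.119 kb from Eif4a1, a translation initiation factor gene. With each peak counted for its nearest gene, Tnfsf8 was the ligand with a peak in every library. Tnfsf12 (TWEAK), which overlaps the read-through gene, had 0, 1 and 0 in LEF1 and 1, 0 and 0 in TCF1.

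Tnfsf14 (LIGHT) had 2, 2 and 1 LEF1 peaks and 2, 1 and 0 TCF1 peaks, Tnfsf11 (RANKL) had 1, 2 and 0 and 1, 1 and 0, and Tnfsf9 (4-1BB ligand) had 1, 1 and 1 and 1, 0 and 0. Their highest fold enrichments were 6.76, 8.21 and 11.4, the last equal to the median near all genes in its list, LEF1 replicate 2. Tnfsf10 (TRAIL) had a peak in LEF1 replicate 2 alone. Tnfsf13b (BAFF), Tnfsf15 (TL1A) and Tnfsf18 (GITR ligand) had none. Regions in all 6 libraries lay 14.1 kb from Tnfsf18, 19.9 kb from Tnfsf15 and 29.5 kb from Tnfsf13b.

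The 8 members without a peak were therefore Tnfrsf11a, Tnfrsf11b, Tnfrsf13c, Tnfrsf21, Tnfrsf23, Tnfsf13b, Tnfsf15 and Tnfsf18. Their lengths ran from 2.64 to 72.6 kb with a median of 24.2 kb, against 2 to 83 kb with a median of 14.2 kb for the 24 members with a peak. With 50 kb on each side, 2 members stayed without a peak.

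Promoter windows were then set against the peaks. The RefSeq promoter table (GRCm38.p6, 250 bp before to 50 bp after a start) holds 29 windows of 25 members. A peak in at least 1 list covered part of such a window at 6 of the 25 members (24%), against 38% of the 17491 protein-coding genes in the table. A peak in all 6 lists did so at 1 member, Tnfrsf18 (4%), against 17.7%. The 6 members were Tnfrsf18 (all 6 lists), Tnfrsf1a (all but TCF1 replicate 3), Tnfrsf14 (all LEF1 lists and TCF1 replicate 1), Tnfsf14 (LEF1 replicates 1 and 2 and TCF1 replicate 1), Tnfrsf1b (LEF1 replicates 1 and 2) and the second start of Tnfrsf9 (LEF1 replicates 2 and 3). Of the 70 regions with a listed member start, 11 had a summit within 1 kb of it, 43 more than 1 kb downstream and 16 more than 1 kb upstream. Most of a window lies beyond 1 kb of a start, and the same shares over all genes were not computed. These counts are therefore no trait of the members.

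The windows were searched on both strands for CTTTGA, a core of the sequence that LEF1 and TCF1 are known to bind, and for its first bases CTTTG, which lie within it. CTTTGA stood in 14.4% of all 21262 promoter windows of protein-coding genes and in 5 of the 29 member windows (17.2%). CTTTG stood in 51.2% of all windows and in 15 of the 29 (51.7%). Of the 6 member windows under a peak, 0 held CTTTGA and 1, that of Tnfrsf1a, held CTTTG. A match is a description of these letters and not a binding site. Over all genes, CTTTGA stood in 14.4% of the windows under a peak in all 6 lists and in 15.4% of those under none. The 3 member windows under a peak in the most libraries are printed 5′ to 3′ on the strand of the gene, followed by the first start of Tnfrsf9, which held CTTTGA under no peak. Capitals mark CTTTG or its reverse complement.
Tnfrsf18 (chr4:156026072-156026371, plus strand): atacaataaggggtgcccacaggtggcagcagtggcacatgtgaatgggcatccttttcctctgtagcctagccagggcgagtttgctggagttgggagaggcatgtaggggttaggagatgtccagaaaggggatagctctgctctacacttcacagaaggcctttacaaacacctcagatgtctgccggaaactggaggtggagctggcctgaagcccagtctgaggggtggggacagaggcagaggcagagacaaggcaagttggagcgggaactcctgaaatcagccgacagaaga
Tnfrsf1a (chr6:125349473-125349772, plus strand): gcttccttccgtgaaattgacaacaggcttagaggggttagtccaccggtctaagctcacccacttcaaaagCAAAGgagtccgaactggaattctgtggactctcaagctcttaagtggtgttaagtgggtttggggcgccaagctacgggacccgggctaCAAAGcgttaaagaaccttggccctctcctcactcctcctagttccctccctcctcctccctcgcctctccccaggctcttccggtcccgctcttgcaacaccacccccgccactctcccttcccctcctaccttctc
Tnfrsf14 (chr4:154928028-154928327, minus strand): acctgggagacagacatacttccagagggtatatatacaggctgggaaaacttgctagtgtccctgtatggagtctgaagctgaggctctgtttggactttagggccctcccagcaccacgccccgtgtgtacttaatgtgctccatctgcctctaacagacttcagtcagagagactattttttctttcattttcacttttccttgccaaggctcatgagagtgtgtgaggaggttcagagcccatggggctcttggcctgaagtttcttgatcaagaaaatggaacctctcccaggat
Tnfrsf9 (chr4:150919905-150920204, plus strand): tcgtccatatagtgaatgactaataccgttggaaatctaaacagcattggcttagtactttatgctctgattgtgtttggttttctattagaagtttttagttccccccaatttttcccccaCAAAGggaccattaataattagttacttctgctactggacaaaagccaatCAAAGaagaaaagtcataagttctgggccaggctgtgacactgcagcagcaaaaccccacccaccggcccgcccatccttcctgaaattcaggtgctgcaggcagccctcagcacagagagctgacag
The peak region over the Tnfrsf18 window spans all of it (chr4:156025847-156026528), with fold enrichments of 11.9, 15.7 and 8.48 in LEF1 and 8.64, 8.23 and 5.3 in TCF1. That over the Tnfrsf1a window had 6.61, 12 and 8.36 in LEF1 and 10.6 and 7.31 in TCF1 replicates 1 and 2. At Tnfrsf1a the region 5.77 kb downstream had a higher fold enrichment than this start region in each library that listed both, as the regions 3.9 kb upstream and 5.78 kb downstream did at Tnfrsf18.

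**Figure D3:**
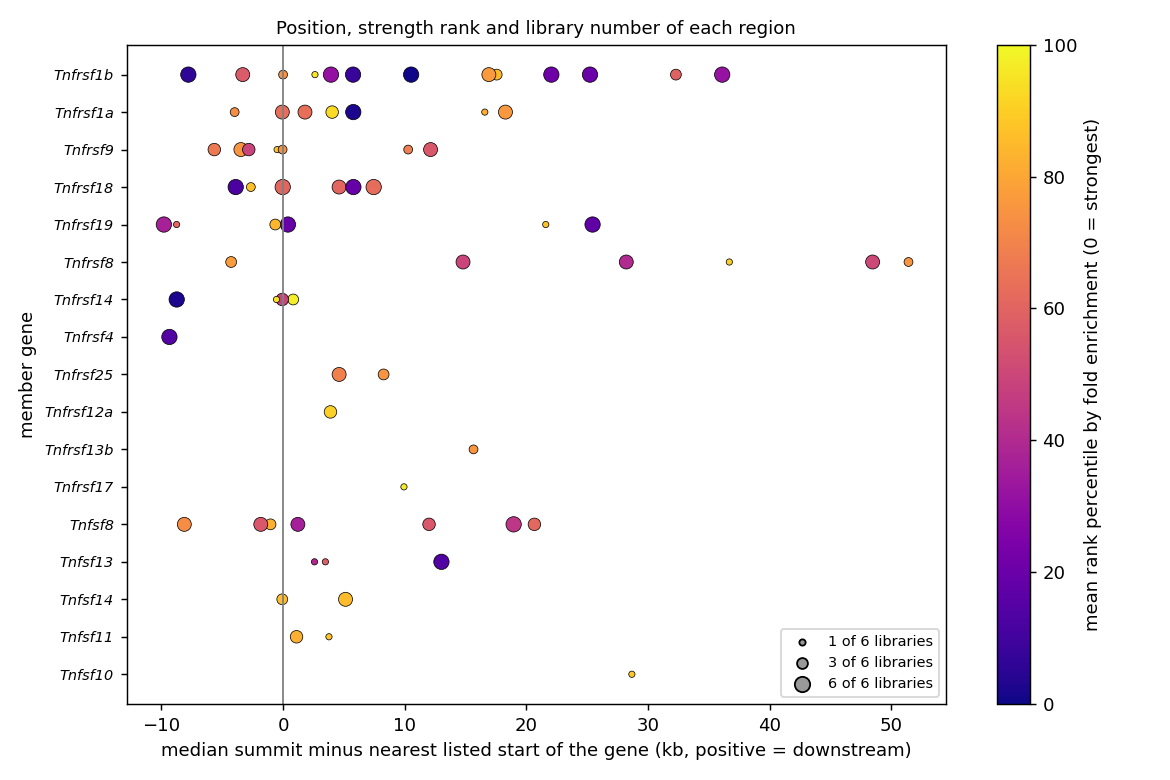
Distance of each region's median summit from the nearest listed start of a member (horizontal axis, kb, positive downstream) for each member with such a start (rows, receptors above ligands). Point size gives the number of libraries and colour the mean rank percentile by fold enrichment, with 0 the strongest. A region shared by neighbouring members is drawn at the nearer start. The darkest points at Tnfrsf1b, Tnfrsf1a and Tnfrsf14 lie 10.5 kb downstream, 5.77 kb downstream and 8.75 kb upstream.

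LEF1 and TCF1 were then compared over their libraries. The LEF1 libraries had 70, 82 and 55 distinct peaks at members and the TCF1 libraries 60, 49 and 25, a mean of 69 ± 13.5 for LEF1 and 44.7 ± 17.9 for TCF1 (SD, n = 3 each). The ranges overlapped (two-sided exact permutation test, p = 0.2, the smallest possible p of this design being 0.1). The difference was 24.3 peaks as the lists were deposited and 14.5 without TCF1 replicate 3, and the LEF1 lists were longer on average. Per 1000 peaks of the list, members took 2.53, 2.18 and 2.32 in LEF1 and 2.34, 2.14 and 2.19 in TCF1, means of 2.34 ± 0.177 and 2.22 ± 0.105 (SD, n = 3 each; exact permutation test, two-sided, p = 0.5). With lists of equal size, 25, 27 and 25 peaks lay at members in LEF1 and 23, 21 and 25 in TCF1.

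TCF1 regions at members were all also LEF1 regions. LEF1 held 68 of the 87 regions and TCF1 held 49, and all 49 were held by both, beside 96% of the TCF1 regions near any protein-coding gene. Of the LEF1 regions at members 72.1% were shared, beside 75.5% near any gene. By gene, 21 members had a region held by LEF1 (65.6%, against 52.6% of all genes) and 18 one held by TCF1 (56.2%, against 49.8%). The TCF1 count of regions was 23 without TCF1 replicate 1 and 23 without TCF1 replicate 2, since each region then needed a peak in TCF1 replicate 3. In the strictest contrast, 5 regions (5.75%, against 3.05% near all genes) were in all 3 LEF1 libraries and in no TCF1 library, and 0 were in all TCF1 libraries and no LEF1 library.

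These 5 lay at Tnfrsf1b (chr4:145214491-145214716 and chr4:145229054-145229393), Tnfrsf25, Tnfsf8 and Tnfsf4. Their mean rank percentiles were 59.5, 84.9, 75.2, 83.2 and 56.3, in the weaker part of the LEF1 lists. Counted by gene, every LEF1 library exceeded every TCF1 library at 4 members (12.5%), which were Tnfrsf1b, Tnfrsf25, Tnfsf8 and Tnfsf4, against 3.62% of all protein-coding genes. For no member did every TCF1 library exceed every LEF1 library, against 0.0274% of all genes. Groups of 3 and 3 libraries without overlap always give the smallest p of the design (exact permutation test, two-sided, p = 0.1). For these 4 it therefore adds nothing to the count. Without TCF1 replicate 3 the count was 4 again, against 3.68% of all genes. Leaving out LEF1 replicate 3 gave 9 members, against 10.4% of all genes, and leaving out TCF1 replicate 1 gave 7, against 8.02%. It was 4 without LEF1 replicate 1, LEF1 replicate 2 or TCF1 replicate 2, against 4.81%, 3.72% and 4.85% of all genes. With lists of equal size it was 1, Tnfsf8, against 1.05% of all genes, and 0 with TCF1 above LEF1, against 2.42%. With lists of equal size among the 5 libraries other than TCF1 replicate 3 it was 2, Tnfsf4 and Tnfsf9, against 1.91%. Every TCF1 library was then higher at Tnfrsf12a, against 4.08% of all genes. Tnfrsf1b and Tnfrsf25 kept no such difference under either setting, Tnfsf8 lost it under the second and Tnfsf4 under the first.

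Of the summits at members, the share that lay up to 1 kb from a gene's start or end was 22.9%, 25.6% and 23.6% in LEF1 and 23.3%, 20.4% and 16% in TCF1. The means were 24 ± 1.42% and 19.9 ± 3.69% (SD, n = 3 each; exact permutation test, two-sided, p = 0.2). Over peaks near all protein-coding genes the order was the other way round, 30.3 ± 1.37% in LEF1 and 36.7 ± 1.93% in TCF1 (SD, n = 3 each; exact permutation test, two-sided, p = 0.1). At receptors alone the share was 21.4%, 22.2% and 22.7% in LEF1 and 20.8%, 19.5% and 13% in TCF1, without overlap (two-sided exact permutation test, p = 0.1). At ligands it was 28.6%, 36.8% and 27.3% in LEF1 and 33.3%, 25% and 50% in TCF1 (two-sided exact permutation test, p = 0.7), with the LEF1 mean the lower one. The lowest member value rests on 4 of 25 summits in TCF1 replicate 3. At receptors the closest values of the groups rest on 12 of 56 summits in LEF1 replicate 1 and 10 of 48 in TCF1 replicate 1. In TCF1 replicate 3 the receptor value rests on 3 of 23 summits and the ligand value on 1 of 2. With 50 kb on each side of the members the difference was -1.82 percentage points, LEF1 minus TCF1.

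Among superfamily genes that carry other symbols, peaks lay at more of the ligands than of the receptors. Of the 8 other receptor genes, LEF1 and TCF1 each held a region at 3, and 4 (Cd40, Ltbr, Ngfr and Eda2r) had no peak in any list, beside 52.6% and 49.8% of all genes with a held region and 40.6% with no peak. Cd27, a costimulatory receptor of naive T cells, had 11, 12 and 11 peaks in the LEF1 libraries and 9, 8 and 6 in the TCF1 libraries. Fas, a death receptor, had 3, 5 and 2 and 2, 2 and 1. Of the 7 other ligand genes, 5 had a peak in all 6 libraries (33.9% of all genes), and Cd70 and Eda had none. Tnf, Lta and Ltb, which share windows, are 3 of the 5.

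Tnf, Lta and Ltb, which encode TNF and the lymphotoxins, lie side by side on chromosome 17 and shared windows. They had 10 distinct regions, 9 held by LEF1 and 7 by TCF1. Tnf alone had 9, 10 and 8 LEF1 peaks and 8, 7 and 4 TCF1 peaks. Fasl, a ligand of cytotoxic T cells, had 4, 5 and 4 and 4, 4 and 3, and Cd40lg, a ligand that T cells use to help B cells, had 4, 4 and 4 and 4, 4 and 3.

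Of the 25 genes that carry or restrain the signal inside the cell, 24 had a region held by LEF1 and 24 one held by TCF1. Among the 25, 0 had no peak in any list. The shares over all protein-coding genes were 52.6% held by LEF1, 49.8% held by TCF1 and 40.6% with no peak. The medians were 3 LEF1 and 2 TCF1 regions per gene, against 1 and 0 over all protein-coding genes. Map3k14, the kinase NIK of the non-canonical NF-kB pathway, had 9, 10 and 7 LEF1 peaks and 8, 8 and 5 TCF1 peaks. Cflar, the inhibitor of caspase 8 known as c-FLIP, had 7, 8 and 6 and 6, 6 and 4. Nfkb1, an NF-kB subunit gene, had 7, 13 and 7 and 7, 6 and 3. Traf1, an adaptor of TNF receptor 2 and 4-1BB, had 5, 9 and 5 and 5, 5 and 1. Chuk, the kinase IKK alpha, was the gene at which neither factor held a region. Peaks were listed there in LEF1 replicate 2 and TCF1 replicate 1.

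**Figure D4:**
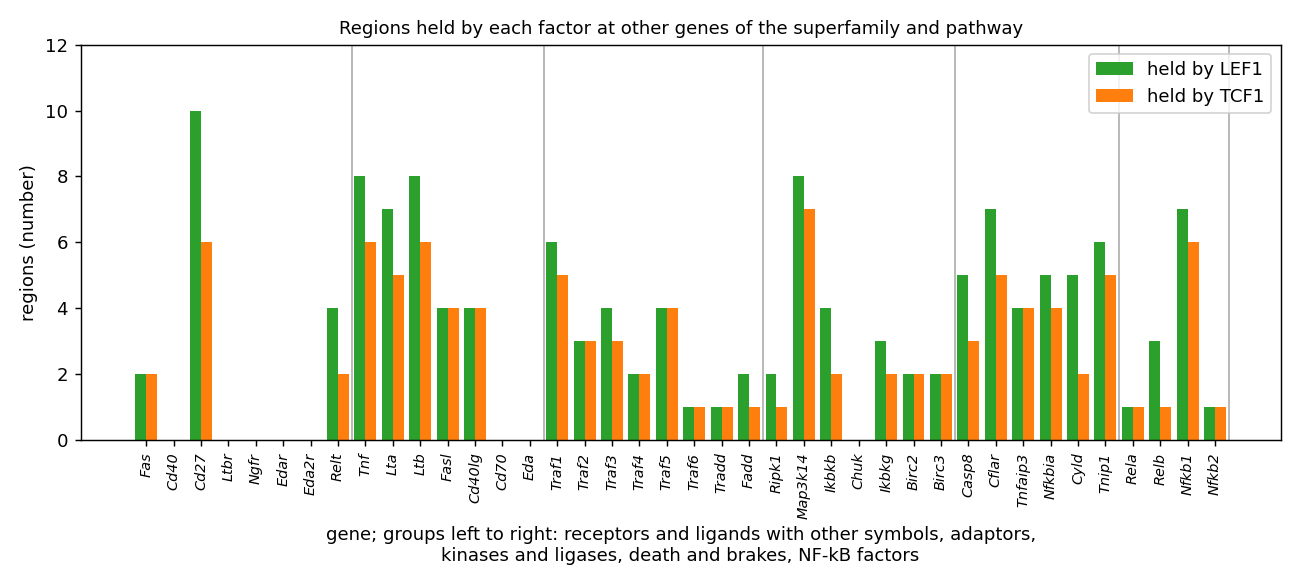
Number of regions held by LEF1 (green) and by TCF1 (orange) at each other gene of the superfamily and of its signalling pathway (horizontal axis, gray lines between lists), where held means listed in 2 or 3 of that factor's 3 libraries. Cd27 has the most LEF1 regions, 10, beside 6 for TCF1, and of the 25 signalling genes Chuk alone has none.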

How the data were processed

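The deposited files are the peak lists of 3 LEF1 and 3 TCF1 libraries. The submitters' processing notes name MACS3 3.0.3, Bowtie2 2.4.4, Trim Galore 0.6.6, FastQC 0.12.1, deepTools 3.5.1, Picard and build GRCm38.p6. For the peak caller, options and any control were not given in the sources used here. Each list's peaks are named for 1 library, so calling by the authors was done library by library. The fold enrichment of a peak is the authors' ratio over local background. The deposited p-value and q-value are −log10 values, the smallest −log10 q being 2 to 2.06 in the 6 lists, and the score of a peak as deposited is nearly always its −log10 q times 10 without decimals. Fold enrichments were used only to describe or rank peaks within a list. A weak site can pass in a long list and be missed in a short one, so equal list sizes were also used.

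Coordinates are 1-based, and unplaced sequences were left out. A peak counts for each gene whose body or 10 kb on each side it touches by at least 1 bp. Peaks of the 6 libraries that overlap were merged to regions. Gene positions and promoter sequences came from RefSeq tables of the same build. Counts were made with Python 3.11.15, numpy 2.4.6 and pandas 2.3.3, and tested on simulated data. Groups and replicate numbers came from sample titles. Means of 3 and 3 libraries were compared by exact permutation over 20 assignments. The alternatives were 0 or 50 kb around genes, a −log10 q of at least 5, equal list sizes (11423 peaks), the summit or nearest gene rule, other holding rules, other gene lists, leaving out each library and a replicate block.

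The members, the pathway and marker lists and the tests were chosen with earlier results of these data known. The genes to be described were the 10 receptors and 6 ligands with the most regions, 11 genes of T cell interest, the 5 best-ranked regions found in all 6 libraries, members with no peak and members whose groups do not overlap. The other members are described as well. The naive T cell marker list is not reported here.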

Additional observations from a re-analysis of the deposited data

How the results depend on the processing

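Of 158 alternatives to the summary results, 121 kept the direction and, for counts and for receptors minus ligands, stayed near the value. Some of the 121 could hardly come out otherwise. The replicate block repeats each difference by construction, and regions held by a factor rest on its own libraries. The LEF1 minus TCF1 differences that kept only their direction include the peaks at members (24.3), at 2.67 with equal list sizes and 0.833 with equal list sizes without TCF1 replicate 3, and per 1000 peaks (0.12), at 0.0259 without LEF1 replicate 1. For the mean peaks per gene, receptors minus ligands (1.59), the values were 0.792 with the gene body only, 2.54 with 50 kb, 0.931 with equal list sizes, 1.04 with the nearest gene only and 0.195 with all superfamily genes. For peaks per 100 kb (2.39) they were 2.01, 1.3, 1.72, 1.74 and 1.96 in the same order, and 2.06 with the stricter threshold. Behind the 1.96, the ligand windows include that of Eda (chrX:99975606-100400760). That long gene had no peak in any list, which lowers the ligand density. The share of genes with a peak, receptors minus ligands (11.9 percentage points), was 23.1 with the gene body only, 23.3 with equal list sizes and 23.1 with the summit inside the window. It was reversed with 50 kb (-7.22) and with all superfamily genes (-2.22). Members with no peak (8) numbered 15 with the gene body only, 2 with 50 kb, 19 with equal list sizes, 13 with the nearest gene only and 14 with all superfamily genes. Regions held by LEF1 (68) and TCF1 (49) numbered 38 and 27 with the gene body only, 108 and 84 with 50 kb, and 25 and 21 with equal list sizes. TCF1 held 23 when all 3 libraries were required. Fewer or wider windows and shorter lists change these counts by construction.

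Leaving out each library in turn gave 23 to 49 regions held by TCF1 and 4 to 9 members with every LEF1 count above every TCF1 count (4). That count was 1 with equal list sizes and 2 with equal list sizes without TCF1 replicate 3. These equal-size settings for it, and the last one for all results, were chosen after seeing the data. The members with a peak, LEF1 minus TCF1 (4.33), were reversed there (-0.167), and lay between 2 and 6 when a library was left out of the lists as deposited. The share of summits near a gene end (4.12 percentage points) was reversed with 50 kb (-1.82). The median rank percentile of member peaks (3.37 points) ranged from -3.99 to 7.35 when a library was left out, with the reversal without TCF1 replicate 3, and ranks from lists of different length show no change. Of 144 values of single genes with a library left out, 1 was reversed, that of Tnfsf11 without LEF1 replicate 2, the lowest of a range from -0.167 to 0.833. The differences of Tnfsf12, Tnfsf13, Tnfsfm13 and Tnfrsf12a were 0 with all libraries, so theirs could not count as reversed. With a library left out they ran from -0.333 to 0.333. Apart from alternatives that change the windows or the lists, the cause of these shifts was not tested.

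Whether the replicate numbers of the titles pair the libraries is not stated, and the numbers inside the deposited peak names differ from them. Same-numbered LEF1 and TCF1 libraries deviated together with correlations of -0.22, 0.40 and 0.64 over all genes. For differently numbered libraries the correlations ran from -0.63 to 0.60, so these values do not settle the pairing. The replicate block leaves each mean difference as it was. That in peaks at members was 24.3 (exact sign-flip test, two-sided, p = 0.25, the smallest that 8 assignments allow). The others were 0.12 per 1000 peaks, 4.33 in members with a peak, 4.12 in the share near gene ends and 3.37 in rank percentile. Read totals are not given, so a missing peak is no sign of a missing site.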
